A study of Mus musculus with 30 samples.

Results

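The mitochondrial genome encodes 7 subunits of respiratory complex I, and the transcripts of these subunits were followed in the E12 mouse eye. Their rows were chosen by name: mt-Nd1, mt-Nd2, mt-Nd3, mt-Nd4, mt-Nd4l, mt-Nd5 and mt-Nd6, which are 7 of the 56484 rows of the count table and 7 of its 37 mt- rows. All 7 rows had counts in all 30 libraries, and all 7 passed the filter on low counts. Each was described as a share of all counts in a library and as a share of the counts on the 37 mt- rows.

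Complex I, the NADH:ubiquinone oxidoreductase, takes electrons from NADH to ubiquinone and pumps protons across the inner mitochondrial membrane. The subunits from the mitochondrial genome form the core of its membrane arm, while the other subunits and the assembly factors are made from nuclear genes and imported. Mitochondrial DNA is transcribed into long precursors from both strands, and most mRNAs are cut free at the tRNAs that lie between them, so that mRNAs of the same strand start from a shared precursor.

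The samples were taken by Geo-seq, in which small areas of a cryosection are cut out by laser capture and their RNA is amplified and sequenced. There were 30 libraries of control embryos at embryonic day 12, littermates without the Dct-Cre transgene on a C57Bl6/J background per the study's methods, from 10 regions with 2 to 4 libraries each. The prospective RPE (pRPE, the future retinal pigment epithelium) gave 14 libraries from dorsal and ventral, proximal and distal areas, and the optic stalk (OS) gave 16 from dorsal and ventral, proximal, middle and distal areas. By position 14 libraries were dorsal and 16 ventral, and by the batch given in the labels 14 were of batch A and 16 of batch B. The design text speaks of 4 control embryos, but the labels do not tie a library to an embryo. The groups by tissue, position and batch hold more libraries than there were embryos, so some of their libraries share an embryo, while libraries of a region need not. The p-values below treat libraries as independent. This can make them too small where the groups hold different embryos, and too large where an embryo gave libraries to both groups. With the block of library numbers in the model, described next, single p-values moved in both directions. The library numbers form 4 blocks of up to 10, 2 blocks in each batch, with the region as the last digit.

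Total counts ranged from 1421918 to 6041021 per library, and 30.4% to 55.4% of them lay on mt- rows. The number of genes with a count ranged from 1730 to 9886. The labelled tissues were checked against markers: of 11 pigment cell genes 8 had counts, and their summed level was 173 to 2407 CPM (counts scaled to a common library total) in the pRPE (median 1076) and 0 to 2227 in the OS (median 218). Of the 7 pigment cell genes tested, 2 were called higher in the pRPE, Gpnmb (a count in 24 libraries) and Pmel (a count in 3), beside 5.51% of 8337 genes called. The other 5 were not called, among them Mitf with a log2 fold change of 2.04, Trpm1 with -0.47 and Otx2 with -0.77. Of the stalk list 3 of 3 tested were called lower in the pRPE, Cdh6 (a count in 25 libraries), Pax2 (14) and Zic4 (6). Pmel and Zic4 passed the filter through the few libraries where they were counted, so their calls check little. None of these calls remained among genes counted in at least 15 libraries, where 0 genes were called between the tissues. Tyr, Tyrp1 and Dct, which define pigment cells, were listed at 0 in all 30 libraries. These are bulk samples, in which fewer cells of a type and less RNA per cell cannot be told apart.

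Of the 7 genes, 6 lie on the plus strand of the mitochondrial chromosome and 1, mt-Nd6, on the minus strand (GRCm38, GENCODE M21; each is a single exon without introns). Their coordinates are chrM:2751-3707 for mt-Nd1, chrM:3914-4951 for mt-Nd2, chrM:9459-9806 for mt-Nd3, chrM:9877-10173 for mt-Nd4l, chrM:10167-11544 for mt-Nd4, chrM:11742-13565 for mt-Nd5 and chrM:13552-14070 for mt-Nd6. There are 2 pairs of genes that share bases, and they are shown because a read on the shared bases can belong to either row. The first line below is chrM:10156-10184 and the second chrM:13544-13573, both on the plus strand, with the shared bases in capitals.
mt-Nd4l and mt-Nd4: aacctactacaATGCTAAaaattattctt
mt-Nd5 and mt-Nd6: atactcaaTTAATCTCGAGTAAtctcgata
The first pair shares 7 bases on the same strand, where the end of mt-Nd4l is the start of mt-Nd4, and their mRNA is known to stay joined. The second pair shares 14 bases on opposite strands. The counting is not stated to use strand, so reads from mt-Nd6 and reads from the opposite strand over the same bases cannot be told apart.

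Some of these genes also have copies in nuclear DNA, and for 3 of them a copy is identical over most of the gene. A stretch of chromosome 1, chr1:24611535-24613116 on the minus strand (GRCm38), was 100% identical to 99.1% of mt-Nd3, to 100% of mt-Nd4l and to 63.6% of mt-Nd4. The opening bases of the match are shown for the first 2, at chrM:9462-9485 and chr1:24613093-24613116 for mt-Nd3 and at chrM:9877-9900 and chr1:24612677-24612700 for mt-Nd4l. All 24 bases are the same in gene and copy, so each line stands for both and has no capitals.
mt-Nd3: aacctgtacactgttatcttcatt
mt-Nd4l: atgccatctaccttcttcaacctc
The rows annotated at the copy, Gm28438 for mt-Nd3, Gm10222 for mt-Nd4l and Gm28439 for mt-Nd4, were listed at 0 in all 30 libraries. Counts of mt-Nd3, mt-Nd4l and part of mt-Nd4 are uncertain in that their sequence does not separate gene from copy. The best nuclear match, by identity times length, had 93.6% identity over 100% of the gene for mt-Nd6. It had 92.3% over 59.1% for mt-Nd5 and 96.7% over 49.2% for mt-Nd2, and mt-Nd1 had no match. For mt-Nd5 there was also 1 shorter match with more than 95% identity.

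Together the 7 rows held 7.86% to 16.1% of all counts in a library (median 11.1%, n = 30) and 17.5% to 32.5% of the counts on mt- rows (median 27.5%). The sum varied less than its parts: its coefficient of variation over the 30 libraries was 13.8% as a share of mitochondrial counts, while those of the members ran from 15.9% for mt-Nd4 to 40.3% for mt-Nd4l. The lowest and the highest summed share of mitochondrial counts came from the same region and the same batch, pRPE dorsal proximal replicate 1 with 17.5% and replicate 2 with 32.5%.

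**Figure D1:**
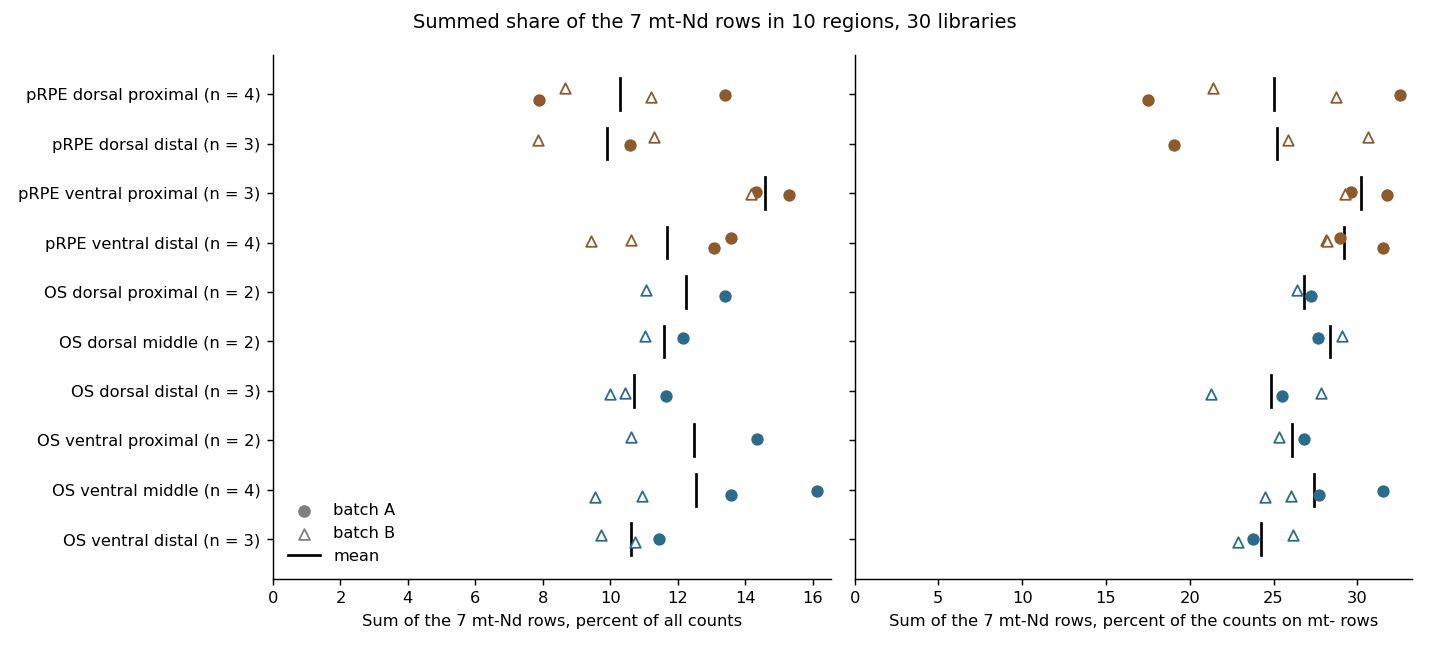
Summed share of the 7 mt-Nd rows in each of the 30 libraries (points; filled circles batch A, open triangles batch B; brown pRPE, blue OS) by region, as percent of all counts (left) and of counts on mt- rows (right), with the region mean as a black bar. pRPE ventral proximal has the highest mean, not adjusted for batch, in both panels, and the libraries of pRPE dorsal proximal span the whole range on the right.

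Across the 10 regions the mean summed share of all counts was highest in pRPE ventral proximal, at 14.6% ± 0.613 (SD, n = 3). It was lowest in pRPE dorsal distal, at 9.91% ± 1.81 (SD, n = 3). The same 2 ends were not found for the share of mitochondrial counts, which was again highest in pRPE ventral proximal (30.2% ± 1.37, n = 3) but lowest in OS ventral distal (24.3% ± 1.72, n = 3). For single members no difference between the 10 regions passed the test. The quasi-likelihood test of edgeR, adjusted by Benjamini-Hochberg, called 0 of 7 as a share of all counts (background 0% of 8337 genes) and 0 of 7 as a share of mitochondrial counts (background 0% of 37 rows), with 0 members at an unadjusted p under 0.05 in either. DESeq2, which scaled libraries by its own size factors and not by their totals, called 0 of 7. Limma called 0 of 7 as a share of mitochondrial counts. With 2 to 4 libraries in a region, small differences could not be seen at this number.

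To compare the levels of different genes, counts were divided by length and are given as CPM per kilobase of the gene. The order of the mean levels over 30 libraries began with mt-Nd1, the subunit at the ubiquinone-binding end of the membrane arm, at 50097 ± 14721 (SD). It was followed by mt-Nd4, a proton-pumping subunit, at 19705 ± 3804, by mt-Nd2, another of them, at 14841 ± 5544, and by mt-Nd6 at 13811 ± 4666. The order ended with mt-Nd5, the pumping subunit at the far end of the arm, at 8317 ± 2399.5, with mt-Nd4l at 5893 ± 2378 and with mt-Nd3 at 4102 ± 1291. The values of mt-Nd3, mt-Nd4l and mt-Nd4 carry the uncertainty of the identical nuclear copy given above. Since mt-Nd4l and mt-Nd4 lie on a joined mRNA, the distance between them cannot be read as a difference of transcript level. mt-Nd1 stood 2.54-fold above mt-Nd4, was higher in 29 of 30 libraries, and was the one member whose mean lay farther from the next than the SDs of both added together. All other neighbours lay within that distance, and mt-Nd2 was above mt-Nd6 in 16 of 30 libraries. Among the 15 mRNA and rRNA rows of the mitochondrial genome, mt-Nd1 came behind mt-Cytb (cytochrome b of complex III) and mt-Atp6 (a subunit of ATP synthase), and the other 6 members held the ranks 10 to 15.

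**Figure D2:**
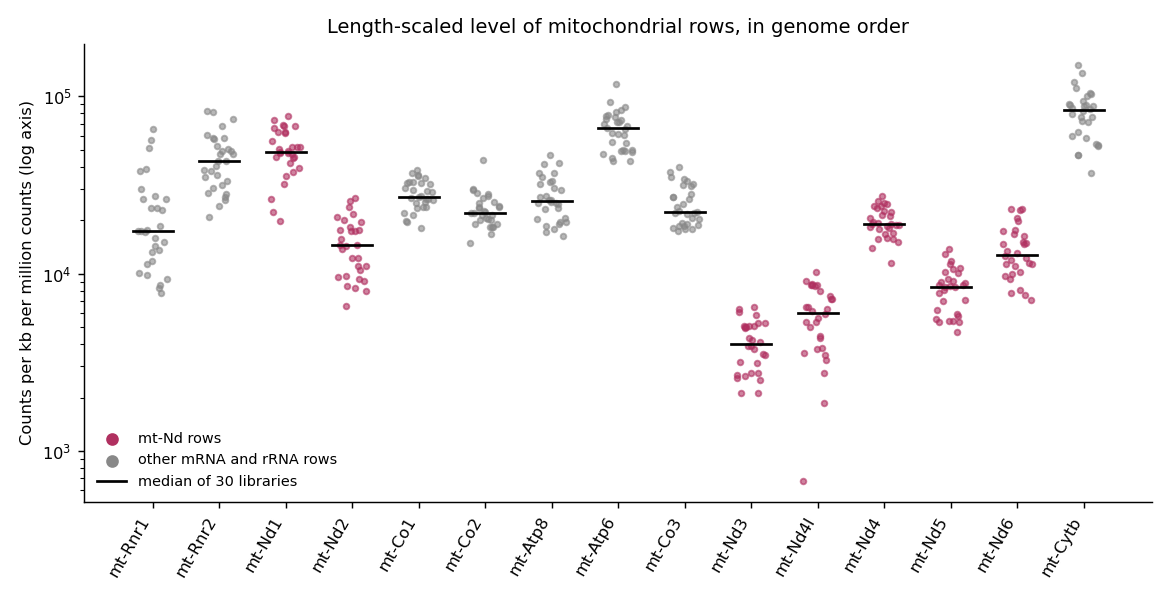
CPM per kilobase of gene length (log axis) of the 13 mRNA and 2 rRNA rows of the mitochondrial genome, in genome order; points are the 30 libraries, bars the medians, and the mt-Nd rows are in red. All mt-Nd rows except mt-Nd1 lie low, and a single library of mt-Nd4l falls far below the rest. mt-Nd3, mt-Nd4l and part of mt-Nd4 have an identical nuclear copy, so their counts are uncertain.

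The share of mitochondrial counts, which is not divided by length, is given next for each member's own spread over the 30 libraries. That of mt-Nd1 ran from 4.04% to 15.4% (median 12.0%) and that of mt-Nd4 from 4.28% to 7.73% (median 6.51%). mt-Nd5 ran from 1.79% to 5.04% and mt-Nd2 from 1.45% to 5.53%. mt-Nd6 ran from 0.854% to 2.86%. The small subunits mt-Nd3 and mt-Nd4l ran from 0.163% to 0.605% and from 0.0516% to 0.689%. The lowest count of any member was that of mt-Nd4l in OS ventral middle replicate 3, with 478 of 926231 mitochondrial counts (0.0516%, 95% Wilson interval 0.0472% to 0.0564%). That library also had the highest mt-Nd2 share of all 30, at 5.53%. The intervals cover counting error only, and at these counts they are far smaller than the spread between libraries.

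How closely the members varied together differed from pair to pair. The likeness of 2 rows was measured as the SD over 30 libraries of the log2 ratio of their counts, among the 15 mRNA and rRNA rows, and a small SD means a steady ratio. mt-Nd3 was most like the large rRNA mt-Rnr2 (SD 0.34), mt-Nd4 most like mt-Atp6 (0.34) and mt-Nd2 most like mt-Atp8 (0.36). mt-Nd5 and mt-Nd6 were both most like mt-Nd4 (0.39 and 0.40), and mt-Nd1 was most like mt-Co1, a subunit of cytochrome c oxidase (0.42). The row most like mt-Nd4l was mt-Nd5, with a larger SD of 0.65. For mt-Nd4l and mt-Nd4, which share bases and an mRNA, the SD was 0.84, and the ratio of the mt-Nd4 count to the mt-Nd4l count, not divided by length, ran from 8.41 to 141 over the libraries (median 14.6). Outside the members, the 5 rows whose share of all counts followed the summed share of the 7 most closely over 30 libraries were Rufy1 (Spearman 0.62), mt-Atp6 (0.56), Gm12280 (0.53), Ctnnbip1 (0.53) and Gm46411 (0.52), of 2757 rows compared. All points share their library totals, and no test was made.

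Between pRPE and OS the summed share of the 7 rows was 11.5% ± 2.49 of all counts (SD, n = 14) against 11.7% ± 1.82 (n = 16), and 27.4% ± 4.75 against 26.2% ± 2.47 of mitochondrial counts. The ranges of the tissues overlapped for every member. In the model with tissue, dorsal-ventral position and batch, edgeR's quasi-likelihood test called 0 of 7 members as a share of all counts (background 5.51% of 8337 genes called). As a share of mitochondrial counts it called 0 of 7 (background 0% of 37 rows), with 0 members at an unadjusted p under 0.05 in either. DESeq2 with its own scaling called 0 of 7, and limma 0 of 7 as a share of mitochondrial counts. As a share of all counts the largest difference was that of mt-Nd6, with 0.368% to 1.06% in the pRPE (median 0.603%) and 0.401% to 1.20% in the OS (median 0.768%). The log2 fold change was -0.33, with a 95% interval of -0.67 to 0.02. For the other 6 members the intervals of the fold between pRPE and OS lay between 0.685 and 1.53, so that changes within this range cannot be told from none here.

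**Figure D3:**
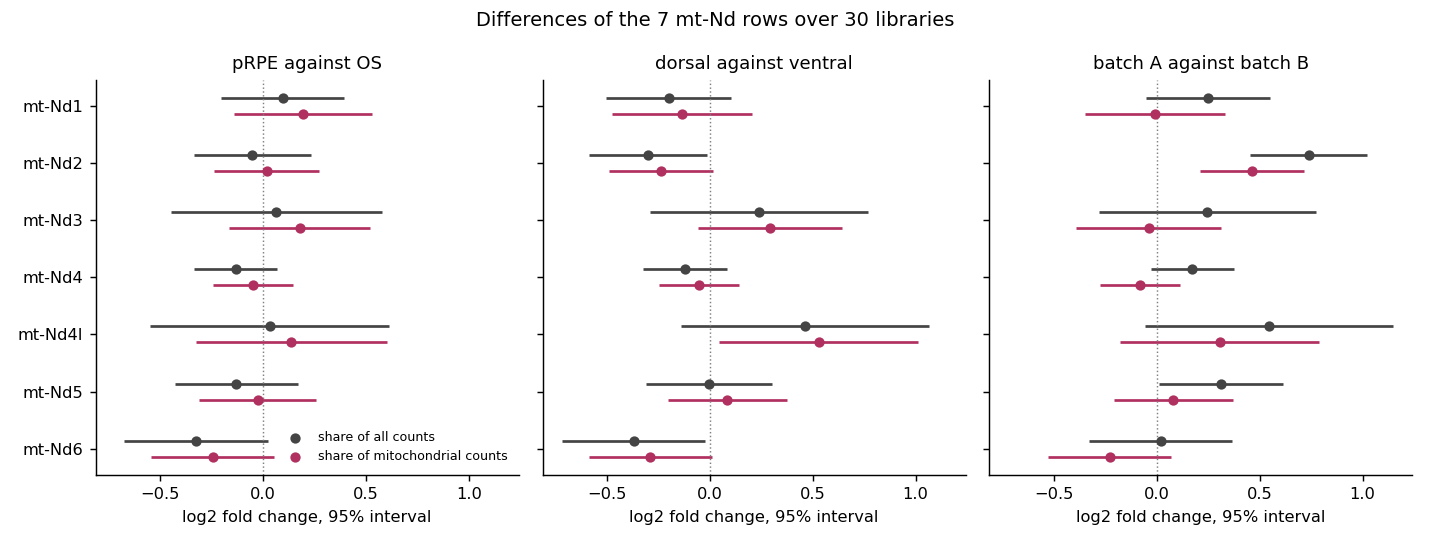
Log2 fold changes (points) with 95% intervals (lines) of the 7 mt-Nd rows for pRPE against OS, dorsal against ventral and batch A against batch B over 30 libraries, as shares of all counts (grey) and of mitochondrial counts (red). The intervals of mt-Nd2 stand clear of 0 in both shares for the batches, and no member passed the adjusted test for tissue or position.

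Between dorsal and ventral libraries the summed share was 10.8% ± 1.74 (SD, n = 14) against 12.3% ± 2.19 (n = 16) of all counts, and 25.8% ± 4.41 against 27.6% ± 2.77 of mitochondrial counts. The batches differed in this: of mitochondrial counts it was 24.9% against 29.0% in batch A and 26.4% against 26.3% in batch B. Of the counts on mitochondrial mRNA rows it was 30.6% against 37.6% in batch A and, the other way, 36.9% against 31.5% in batch B. The sum was not tested. edgeR called 0 of 7 members in the share of all counts (background 7.86% of 8337 genes called) and 0 of 7 in the share of mitochondrial counts (background 0% of 37 rows). DESeq2 with its own scaling called 0 of 7, and limma 0 of 7 as a share of mitochondrial counts. In edgeR 2 members had an unadjusted p under 0.05 in the share of all counts, mt-Nd2 with a log2 fold change of -0.30 (SE 0.14, adjusted p 0.231) and mt-Nd6 with -0.37 (SE 0.17, adjusted p 0.224). In the share of mitochondrial counts there was 1, mt-Nd4l with 0.53 (SE 0.24, adjusted p 0.330). These came over libraries of which some share an embryo, and none passed the adjusted test.

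The tissue and the position could also act together, which was tested as the difference of the dorsal-ventral difference between pRPE and OS. No member was called: 0 of 7 as a share of all counts (background 3.12% of 8337 genes called), with 1 at an unadjusted p under 0.05, and 0 of 7 as a share of mitochondrial counts (background 0% of 37 rows), with 0 at an unadjusted p under 0.05. DESeq2, with its own scaling, and limma called 0 of 7 as well. The 1 member was mt-Nd1. Its share of all counts was 2.13% to 5.94% in the dorsal pRPE (median 3.76%, n = 7) and 4.52% to 7.45% in the ventral pRPE (median 6.32%, n = 7). In the OS it was 4.03% to 5.99% in dorsal (median 4.59%, n = 7) and 1.89% to 7.04% in ventral libraries (median 4.67%, n = 9). The pRPE groups overlapped in part and the ventral OS spanned the whole dorsal OS. The interaction was -0.61 (SE 0.28) on the log2 scale, with an adjusted p of 0.194 in edgeR.

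The member called over all 30 libraries was mt-Nd2, a proton-pumping subunit, which was higher in batch A than in batch B in both shares. Its share of all counts was 1.27% to 2.78% in batch A (median 1.86%, n = 14) and 0.683% to 2.16% in batch B (median 1.04%, n = 16). The groups overlapped, but 12 of the 16 libraries of batch B lay below all libraries of batch A. The log2 fold change was 0.74 (SE 0.14, 95% interval 0.46 to 1.02), a fold of 1.67, with an adjusted p of 0.0151 in edgeR over libraries of which some share an embryo. It was the only 1 of 7 members called in this share (background 3.81% of 8337 genes called), with 2 members at an unadjusted p under 0.05, the other being mt-Nd5 with a log2 fold change of 0.31 (adjusted p 0.336). DESeq2 with its own scaling also called mt-Nd2 alone of the 7.

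As a share of mitochondrial counts mt-Nd2 was 3.07% to 5.20% in batch A (median 4.10%) and 1.45% to 5.53% in batch B (median 2.97%), where 10 of 16 libraries lay below all of batch A and 1 above all of them. The log2 fold change was 0.46 (SE 0.12, adjusted p 0.00817 in edgeR). mt-Nd2 was 1 of 7 members called, beside 8 of 37 rows called in all (background 21.6%). The other rows called were mt-Rnr1 (0.77), mt-Tf (2.36), mt-Atp8 (0.40) and mt-Atp6 (0.29), higher in batch A, and mt-Co1 (-0.34), mt-Co3 (-0.41) and mt-Te (-0.71), lower there. Both shares kept the call in each of 30 fits without a library. In the share of all counts the call was lost in limma voom without a block (0.75, SE 0.25, adjusted p 0.956), in limma voom with the library block as a random block (0.75, SE 0.27, adjusted p 0.9995) and in edgeR without the filter on low counts (adjusted p 0.128). In the share of mitochondrial counts it was kept in limma voom without a block (0.49, SE 0.12, adjusted p 0.0065) and lost with the block (0.48, SE 0.17, adjusted p 0.0776).

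By block the mt-Nd2 share of all counts was 1.85% ± 0.229 (SD, n = 5) and 2.02% ± 0.544 (n = 9) in the blocks of batch A, and 1.25% ± 0.506 (n = 7) and 1.11% ± 0.289 (n = 9) in those of batch B. The means of both blocks of batch A lay above those of both blocks of batch B. The mt- rows as a whole held 47.6% ± 4.08 of all counts in batch A and 39.8% ± 4.83 in batch B, and the summed share of the 7 was 12.9% ± 2.09 and 10.5% ± 1.38. Within the 10 regions, all libraries of batch A had more mt-Nd2 than all libraries of batch B in 9, in both shares, with 1 or 2 libraries of a batch in a region. Since the labels give no embryo, batch and embryo cannot be told apart. For the other 6 members the log2 fold changes between batch A and batch B ran from 0.02 (mt-Nd6) to 0.55 (mt-Nd4l, SE 0.29) in the share of all counts and from -0.23 (mt-Nd6, SE 0.14) to 0.31 (mt-Nd4l, SE 0.24) in the share of mitochondrial counts, and none was called.

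**Figure D4:**
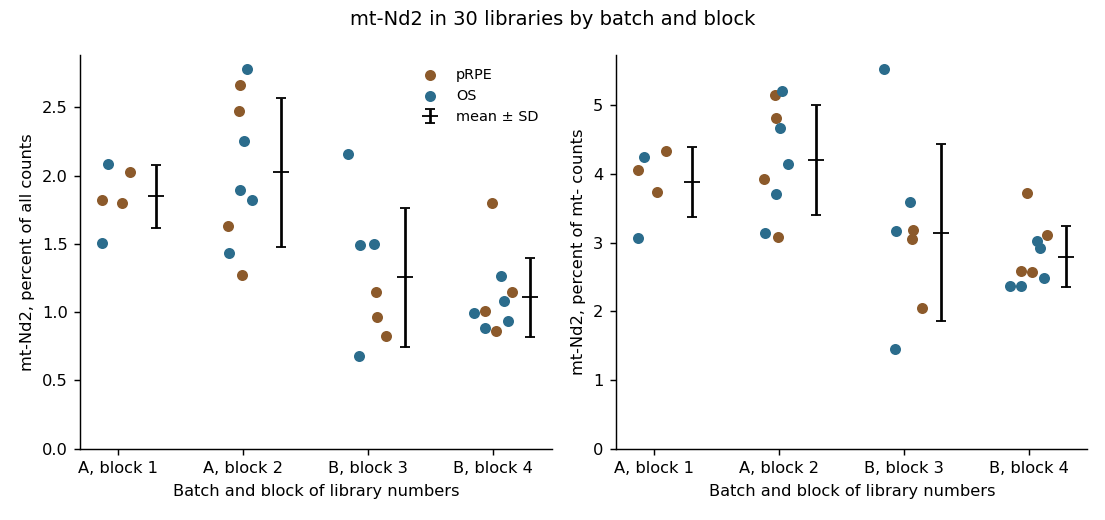
Share of mt-Nd2 in all counts (left) and in the counts on mt- rows (right) in the 30 libraries, by batch and by block of library numbers (points, brown pRPE and blue OS; black marks are mean ± SD with n = 5, 9, 7 and 9). Most libraries of batch B lie below those of batch A, and a single OS library of block 3 has the highest share on the right.

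Beside the models with batch as a term, the comparison of dorsal and ventral libraries was also made within each batch, a step chosen after seeing the data. In batch A 0 of 7 members were called in either share by edgeR (background 0% of 8337 genes and 0% of 37 rows), with 1 member (mt-Nd1) at an unadjusted p under 0.05 in the share of all counts and 0 in the share of mitochondrial counts. In batch B 2 of 7 members, mt-Nd3 and mt-Nd4l, were called higher in dorsal libraries as a share of mitochondrial counts, beside 6 of 37 rows called in all (background 16.2%). Both are small subunits that lie in the membrane arm between mt-Nd1 and the pumping subunits, and both have the identical nuclear copy shown above. In the same edgeR fit mt-Nd5 with 0.36 (adjusted p 0.109) and mt-Nd6 with -0.43 (adjusted p 0.129) also had an unadjusted p under 0.05. They were not called, and mt-Nd6 was lower in dorsal libraries.

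The share of mt-Nd3 in batch B was 0.299% to 0.605% in dorsal (median 0.455%, n = 8) and 0.177% to 0.389% in ventral libraries (median 0.237%, n = 8). The groups overlapped, with 5 dorsal libraries above all ventral and 7 ventral below all dorsal. The log2 fold change was 0.77 (SE 0.17), with an adjusted p of 0.00286 in edgeR over libraries of which some share an embryo. In batch A mt-Nd3 was 0.163% to 0.469% in dorsal (median 0.252%, n = 6) and 0.267% to 0.449% in ventral libraries (median 0.326%, n = 8), with a log2 fold change of -0.27 (SE 0.22, adjusted p 0.672).

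The share of mt-Nd4l in batch B was 0.271% to 0.689% in dorsal (median 0.561%, n = 8) and 0.0516% to 0.394% in ventral libraries (median 0.241%, n = 8). Again the groups overlapped, with 6 dorsal libraries above all ventral and 6 ventral below all dorsal. The log2 fold change was 1.12 (SE 0.32), with an adjusted p of 0.0164 in edgeR. Both calls were kept in each of 16 fits without a library of batch B. In batch A mt-Nd4l was 0.285% to 0.621% in dorsal (median 0.375%, n = 6) and 0.242% to 0.594% in ventral libraries (median 0.479%, n = 8), with -0.19 (SE 0.21, adjusted p 0.711).

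The difference between the batches was itself tested, as batch A minus batch B. It was called for 2 of 7 members and 7 of 37 rows (background 18.9%): mt-Nd3 with -1.07 (SE 0.28, adjusted p 0.00571) and mt-Nd4l with -1.31 (SE 0.40, adjusted p 0.0152) in edgeR. Of the other members mt-Nd5 had an unadjusted p under 0.05 (-0.63, adjusted p 0.103 in edgeR). When the model also held the log2 count of detected genes, mt-Nd3 was still called (-1.22, adjusted p 0.00145) and mt-Nd4l was not (-1.04, adjusted p 0.0947). As a share of all counts 0 of 7 members were called for the same difference by edgeR (background 9.69% of 8337 genes called), with 3 at an unadjusted p under 0.05: mt-Nd3 with -1.04 (adjusted p 0.164), mt-Nd4l with -1.32 (adjusted p 0.100) and mt-Nd5 with -0.63 (adjusted p 0.141). As a share of mitochondrial counts, the rows called beside mt-Nd3 and mt-Nd4l were mt-Rnr2 (-1.18), mt-Cytb (1.00), mt-Co3 (0.65), mt-Atp6 (0.49) and mt-Atp8 (0.46). mt-Rnr2, the row most like mt-Nd3, held 20.2% to 29.0% of mitochondrial counts in dorsal libraries of batch B and 10.1% to 15.6% in ventral ones, with no overlap. mt-Cytb moved the other way, with 13.8% to 19.6% in dorsal and 19.7% to 36.7% in ventral libraries of batch B, also with no overlap (log2 fold change -0.70, SE 0.11, adjusted p 6.1e-05 in edgeR). All of these are shares of the same total, so that a lower share of 1 row raises the shares of others. Within batch B the fold between dorsal and ventral ran the same way in both blocks. mt-Nd3 was 0.438% ± 0.136 (SD, n = 4) in dorsal and 0.242% ± 0.0456 (n = 3) in ventral libraries of block 3, and 0.433% ± 0.0754 (n = 4) and 0.259% ± 0.0815 (n = 5) in those of block 4.

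The number of detected genes moved with this difference. It was 2693 to 9886 in dorsal (median 7651) and 1730 to 4853 in ventral libraries (median 3537) of batch B, and 3427 to 7176 (median 4146.5) and 2106 to 5566 (median 4843) in batch A. With the log2 number of detected genes as a covariate mt-Nd3 was still called in batch B, with 0.91 (adjusted p 0.00233), while mt-Nd4l was 0.95 and was not called (adjusted p 0.137). The summed levels of the marker lists in the same libraries overlapped between dorsal and ventral. That of the pigment cell list, with 8 of 11 genes counted, was 313 to 2407 CPM (median 1080) in dorsal and 0 to 2068 (median 158) in ventral libraries, and that of the stalk list 6.06 to 592 (median 142) and 63.9 to 1741 (median 503). The median was 22.1 CPM in dorsal and 0.936 in ventral libraries for the neural retina list, 6.41 and 0 for neurons, 96.2 and 32.8 for mesenchyme, 5.89 and 0 for blood, 50.1 and 68.8 for endothelium and 17.6 and 0 for lens. For mitochondrial transcription and RNA processing it was 357 and 80.5. No list was tested within batch B, and the part of these lists in the result was not tested. As a share of all counts 0 of 7 members were called by edgeR in batch B (background 10.6% of 8337 genes called, or 882, against 9 with the replicate block and 3 with detected genes in the model), with 1 at an unadjusted p under 0.05, where mt-Nd4l had 1.07 (SE 0.49, adjusted p 0.163) and mt-Nd3 had 0.71 (SE 0.45, adjusted p 0.362).

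**Figure D5:**
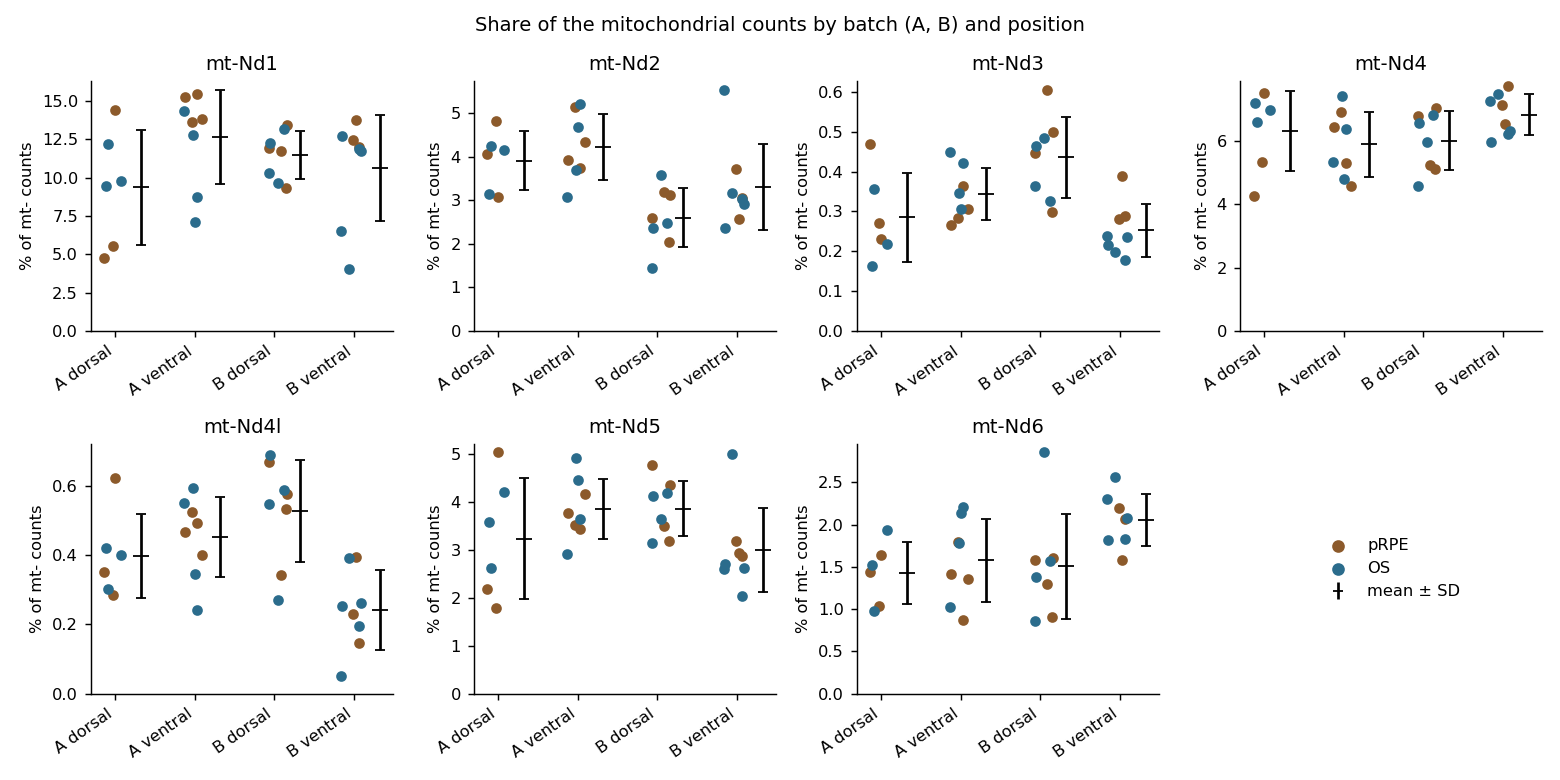
Share of the counts on mt- rows (percent) of each of the 7 mt-Nd rows in the 30 libraries, by batch (A, B) and dorsal or ventral position (points, brown pRPE and blue OS; black marks are mean ± SD with n = 6, 8, 8 and 8). mt-Nd3 and mt-Nd4l are higher in dorsal than in ventral libraries of batch B and not in batch A, and mt-Nd2 is higher in batch A.

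The remaining complex I genes are nuclear, and few had enough counts to be tested. Of a list of 37 nuclear subunits 36 were in the table, 20 had a count in some library and 8 passed the filter on low counts. The other 16, among them Ndufv2, Ndufs7 and Ndufs8 of the electron-carrying arm, were listed at 0 in all 30 libraries. Of the 8 tested, 0 were called by edgeR between dorsal and ventral (background 7.86%), between the batches (3.81%), between the 10 regions (0%) or for the interaction (3.12%), and 1 between pRPE and OS (5.51%). This was Ndufa9, a subunit at the joint of both arms, on the side of lower values in the pRPE. It had a count in 4 of 30 libraries, with at most 30.6 CPM, and so passed the filter through the few libraries where it was counted. No fold is given for it, and with genes counted in at least 15 libraries it was not tested. The 3 subunits with the highest mean share were Ndufb6 with 665 to 3622 CPM (median 1849), Ndufa5 with 651 to 3592 (median 1405) and Ndufa6 with 0 to 237 (median 39.3). Ndufb6 and Ndufa5 had counts in all 30 libraries and Ndufa6 in 22.

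Of 15 complex I assembly factors 7 had a count, 2 were tested and 0 were called in any of the 5 comparisons. The highest were Ndufaf4 with 0 to 1336 CPM (median 347), Ndufaf6 with a count in 13 libraries and Ndufaf2 with a count in 1. Of 22 genes of mitochondrial transcription and RNA processing 15 had a count and 6 were tested. Of these, 1 was called between pRPE and OS (background 5.51%), 2 between dorsal and ventral (7.86%), 1 between the batches (3.81%) and 0 between the regions or for the interaction. They were Mterf4, which acts in mitochondrial ribosome assembly, in the first 3 comparisons and Tfb2m, a mitochondrial transcription factor, between dorsal and ventral. Mterf4 had a count in 7 of 30 libraries and Tfb2m in 3, with a median of 0 CPM for both, so that both passed the filter through those few libraries. No fold is given for them, and neither was tested with genes counted in at least 15 libraries. The 3 with the highest mean share were Mtpap, the mitochondrial poly(A) polymerase, with a median of 67.8 CPM, Mterf3 with a count in 9 libraries and Lrpprc with a median of 15.4 CPM, and Tfam was listed at 0 throughout.

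Of the other mitochondrial rows as shares of all counts, 1 of 6 further mRNAs (mt-Atp8, 0.66, adjusted p 0.0286) and 1 of 2 rRNAs (mt-Rnr1, 1.04, adjusted p 0.0391) were called higher in batch A, with 0 of 22 tRNAs. mt-Atp6 had a lower adjusted p (0.56, adjusted p 0.0014 in edgeR) and missed the call by the fold limit of 0.58 alone. In the tissue, position, region and interaction comparisons 0 of these 30 rows were called.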

How the data were processed

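The authors checked the reads with FastQC, mapped them to GRCm38 with HISAT2 and processed them with StringTie, and deposited a table of estimated counts (expected counts) per gene, without normalization. How the counts were made from the StringTie output, the annotation, the tool versions and any use of strand are not given in the sources used here. Of the values, 270 in 63 genes were not whole and were rounded. Single-end reads came from amplified cDNA, and no molecular identifiers are mentioned.

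Genes with more than 10 counts in at least 3 libraries were kept (8337, all 37 mt- rows among them). Counts were tested with edgeR 4.0.16 (quasi-likelihood test, R 4.3.3) with tissue, dorsal-ventral position and batch, with the library total or the total on mt- rows as library size and no further scaling. The region test replaced tissue and position, and the interaction test added their product. A gene was called at a Benjamini-Hochberg adjusted p under 0.05 over all genes (for shares of all counts) or over the 37 mt- rows, and for shares of all counts a log2 fold change beyond 0.58. The SE of an edgeR fit was taken as the size of the log2 fold change divided by the square root of the test's F. Intervals of 95% used this SE and the residual degrees of freedom (26, or 25 with the interaction). The p-values came from the F test, whose degrees of freedom edgeR moderates over genes, so intervals and p-values rest on different references. Alternatives used limma 3.58.1 and DESeq2 1.42.0, a batch-stratified permutation test (100000 resamples), other filters, no batch term, no fold limit, TMM scaling, fits within each batch, the number of detected genes, the library block, 13 protein-coding rows alone and leaving out single libraries. DESeq2 scaled libraries by its own size factors, so it did not test the share of the library total. Descriptions used python with pandas and scipy, and nuclear copies were sought by megablast. The edgeR steps were run on simulated data whose spread was set smaller than that of these data. The common dispersion, edgeR's measure of spread, was 7.75 over all genes and 0.704 over the mt- rows here. That run therefore does not measure how the tests perform on these libraries.

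Blocks of consecutive library numbers were checked as a pairing. Within a block the deviations from region means of 15 mitochondrial rows correlated by 0.241 on average over 103 pairs (-0.624 to 0.945), against 0.0509 over 108 pairs from different blocks of 1 batch. The mean was thus higher within blocks, but not every pair correlated and the labels do not say what a block is, so the block entered as an alternative. For the batches it was a random block in limma voom, which was also run without the block. No libraries were identical. The members and gene lists were chosen with earlier results of these data known. By rule, the text names all members, the nearest rows by likeness, and the 3 genes of a list with the highest mean share. Called genes of a list and genes named as listed at 0 were chosen after their values were seen.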

Additional observations from a re-analysis of the deposited data

Results flagged for a closer look

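Among the regions with 4 libraries, 48 sets of values were looked through and 1 library stood apart from its group. mt-Nd5 held 4.91% of mitochondrial counts in OS ventral middle replicate 2, while the other 3 libraries of that region held 2.59% to 2.91%. By chance about 1 in 20 such sets would hold a value this far out.

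The difference between dorsal and ventral libraries was not the same in both batches for 2 members, by the test of that difference in the share of mitochondrial counts (edgeR, log2 scale, batch A minus batch B). mt-Nd3 had -1.07 and mt-Nd4l had -1.31. The comparison was chosen after seeing the data.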

How the results depend on the processing

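The number of the 7 rows called moved under few alternatives. For batch A against batch B it was 1 in both shares and 1 in every fit without a library, but 0 with the replicate block (limma voom) in both. Limma voom with no block, added after seeing the data, gave 0 in the share of all counts and 1 in that of mitochondrial counts, so for the former the call was absent without the block too. It was also 0 without the filter on low counts in the share of all counts, where 25243 genes were tested. For dorsal against ventral in the share of mitochondrial counts it was 0 over both batches, 0 in every fit without a library, and 2 within batch B. With the number of detected genes as covariate, the 2 calls within batch B and the 2 of the batch by dorsal-ventral interaction each became 1, with mt-Nd4l lost, and without single libraries those within batch B were 2 to 3. The replicate block changed no other call of members. No other count of members changed; the cause of these changes was not tested.

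TMM moved the median log2 fold change of all genes from 0.63 to 0.81 for dorsal against ventral and from -0.13 to 0.08 for the batches. Among uncalled members TMM turned the sign of mt-Nd2 between the tissues and of mt-Nd4 and mt-Nd5 between the positions and for the interaction. DESeq2 turned mt-Nd1, mt-Nd3 and mt-Nd4l between the tissues and mt-Nd4 and mt-Nd5 between the positions, and detected genes in the model turned mt-Nd1, mt-Nd2 and mt-Nd4l between the tissues. Over all genes the counts called moved more. Between the tissues (459) they were 696 without the filter, 0 with genes counted in at least 15 libraries, 38 with the replicate block, 301 with DESeq2, 21 with the permutation test and 0 within either batch. Between the positions (655) they were 0 with genes counted in at least 15 libraries, 7 with the permutation test and 0 within batch A. Within batch B (882) they were 9 with the replicate block and 3 with detected genes as covariate, and for batch by position (808) they were 2 and 293. Between the batches (318) they were 129 without the filter, 3 with genes counted in at least 15 libraries, 0 with the replicate block, 2 with limma voom and no block, 559 with detected genes as covariate, and 3 to 351 without single libraries. DESeq2 called 320, of which 207 were higher in batch A against 108 of the 318. For the interaction (260) they were 0 with TMM, with the replicate block and with detected genes, 770 with DESeq2 and 0 to 422 without single libraries. Between the regions (0) they were 288 without the filter, 47 with DESeq2 and 5 with the replicate block. The counts of nuclear complex I genes were too low to test 28 of 36.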
